A study of Mus musculus with 8 samples.

Results

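The genes described here encode the histone lysine methyltransferases and demethylases of the mouse other than G9a, with the related SET domain, SMYD and PRDM proteins. They were chosen by name alone, as the protein-coding genes whose symbol begins with Kmt, Kdm, Setd, Nsd, Ezh, Smyd, Prdm or Suv420h followed by a digit. Of 54251 genes in the deposited table, 60 matched the name and 58 of these were protein-coding. The other 2 were the antisense transcript Kdm6bos and the pseudogene Kdm4dl. Polyadenylated RNA of kidneys was sequenced in 8 libraries, 2 in each of 4 groups, and each library pooled RNA of 3 adult male C57BL/6 mice. WT was wild type, and in KO the H3K9 methyltransferase G9a, encoded by Ehmt2, was knocked out specifically in the kidney. WT_IR and KO_IR had in addition undergone renal ischemia-reperfusion (IR): the vessels of the left kidney were occluded for 45 min and tissue was collected on day 3. The promoter or Cre line behind the knockout is not given in the sources used here, and the labels do not say whether WT and KO kidneys came from mice without surgery or from the uninjured side.

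Methyl groups on histone lysines are written by enzymes that mostly carry a SET domain and are removed by flavin-dependent amine oxidases of the Kdm1 family or by Jumonji oxygenases. Methylation of H3K4 and H3K36 accompanies active transcription, methylation of H3K9 and H3K27 accompanies silencing, and methylation of H4K20 is tied to chromosome compaction and DNA repair. The Jumonji demethylases need oxygen, iron and 2-oxoglutarate. In the injured kidney surviving tubule cells divide, and inflammatory cells and fibroblasts accumulate. Several of these enzymes, Ezh2 among them, are known to be more abundant in dividing than in resting cells.

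Ehmt2, the gene targeted in KO, was measured at 33.4 and 30.3 FPKM in WT, 34.5 and 35.8 in WT_IR, 28.1 and 26.4 in KO and 27.3 and 26.3 in KO_IR. FPKM are fragment counts divided by gene length and by library size. The knockout libraries were the lower ones in each condition, and KO minus WT on the log2 scale was -0.22 ± 0.083 (SE, n = 2, limma adjusted p = 0.370) in the absence of IR and -0.38 ± 0.083 (adjusted p = 0.0140) after IR. Whole kidney and the whole gene model enter these values, which therefore do not show the deletion by themselves. Kdm5d, a Y-linked H3K4 demethylase, lay between 1.35 and 1.96 FPKM in all 8 libraries (the labels give male mice). Each library held 14965670 to 17596690 recovered fragments, and the lowest count of a tested gene of the group in any library was 60 fragments. The deposited FPKM of the WT_IR libraries were scaled by 1.18 and 1.19 times their total over genes, against 0.921 to 1.03 times in the other groups. Rescaled to TPM, which makes every library sum to the same total, the median log2 change of all tested genes from WT to WT_IR moved from -0.023 to 0.43, and that of KO_IR minus WT_IR moved from -0.008 to -0.33. In KO_IR, 40 of the 49 tested genes of the group were lower in replicate 1 than in replicate 2, with a median log2 difference of -0.12.

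Of the 58 genes, 49 had a mean of at least 0.5 FPKM over the libraries and were tested. The 5 with the highest mean were Setd3 (24.2 FPKM), Kmt5c (21.7 FPKM), Kmt5a (19.5 FPKM), Kdm4a (16.8 FPKM) and Kdm5c (12.9 FPKM). Within WT libraries Kmt5c and Kmt5a overlapped, as did Kdm4a and Kdm5c, and in WT_IR Kdm4a was above the other 4. The 9 genes below the limit were Prdm1, Prdm6, Prdm8, Prdm11, Prdm12, Prdm13, Prdm14, Smyd1 and Kdm4d. Prdm11 had a mean of 0.497 FPKM and Prdm1, a regulator of plasma cells, one of 0.405 FPKM. Prdm6, Smyd1, Kdm4d and Prdm14 had means of 0.0887, 0.086, 0.0437 and 0.00576 FPKM, and Prdm8, Prdm12 and Prdm13 were listed at 0 in every library. The tested genes were long, with a median gene length of 9.184 kb against 3.539 kb for all 15607 tested genes. Within the genome, 29 of the 58 overlapped a gene on the opposite strand, 8 of them a protein-coding one. Whether fragments were counted by strand is not given in the sources used here, so reads of such partners cannot be told apart.

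**Figure D1:**
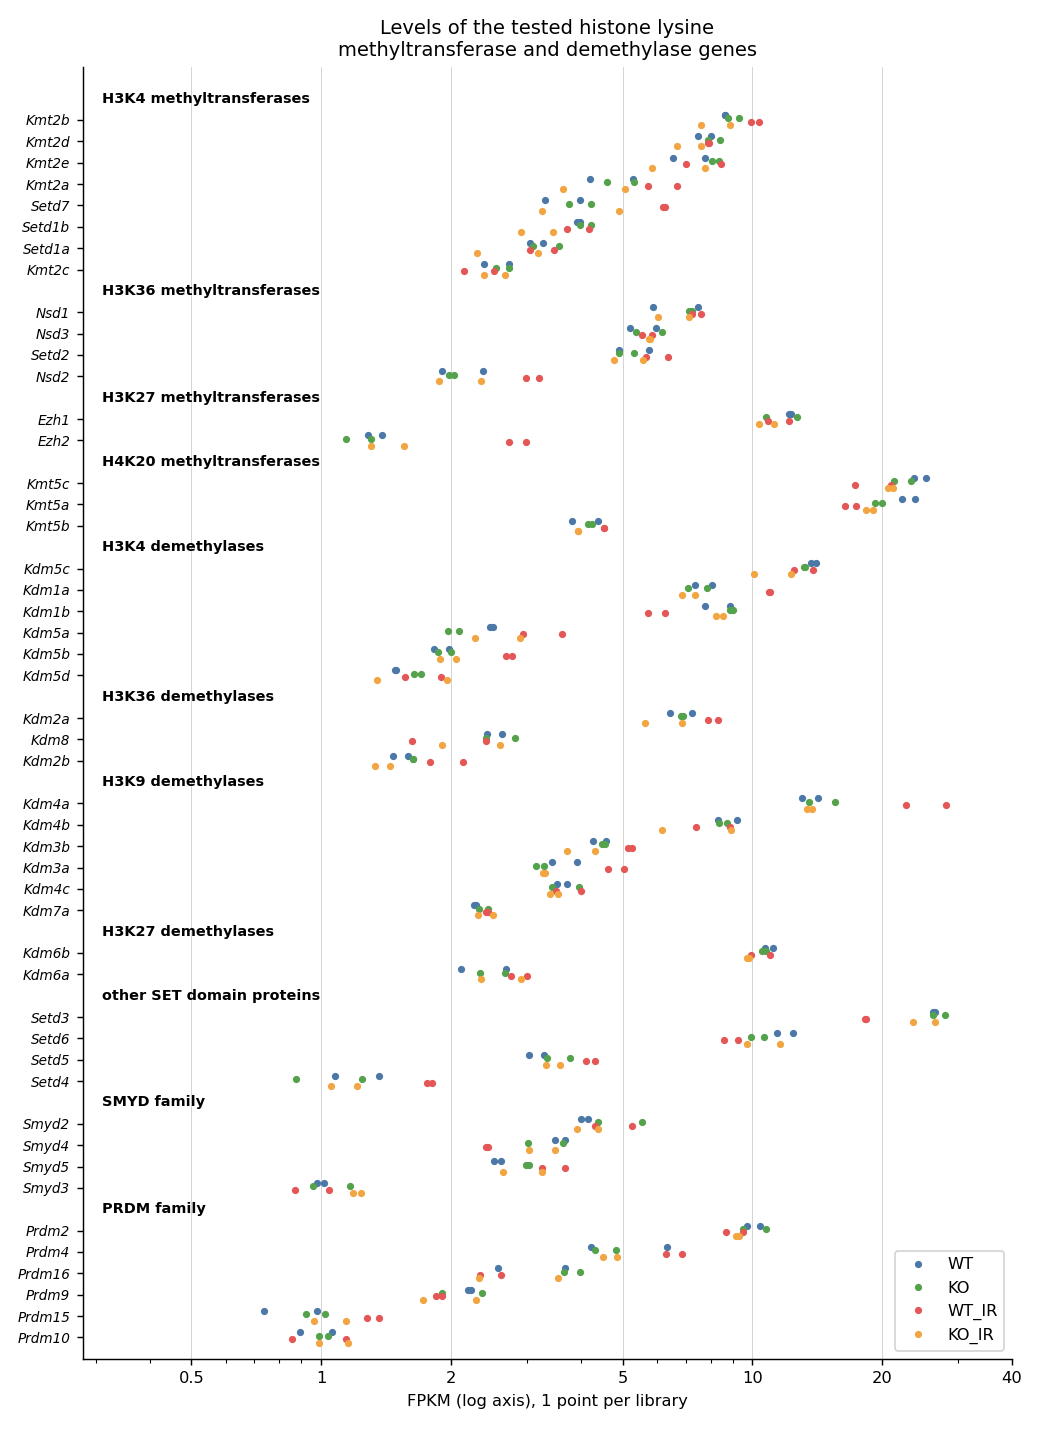
Level of the tested genes in each library (FPKM, log axis), 1 gene excepted, grouped by the histone lysine or family, with 1 point per library and colours for the groups. Most genes hold the 8 points close together, Kdm4a and Ezh2 have both WT_IR points to the right of the other 6, and Setd3 has both to the left.

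In wild-type kidney, 8 of the 49 genes rose and 6 fell with IR, 28.6% together beside 42.3% of all tested genes. On the TPM scale the split was 34 and 0 of the 49, beside 7486 and 1554 of all 15607 tested genes. With median-of-ratios factors, which align the libraries on their typical gene, it was 9 and 5, beside 3124 and 3416. In knockout kidney 0 of the 49 passed the test (limma, 1 at an unadjusted p under 0.05, and 0 calls by voom), beside 1.03% of all genes. Of all tested genes, 6.68% had a lower and 9.62% a higher IR response in KO than in WT by the interaction test. Of the 49, 3 (6.12%) had a lower one, and the call held with each single library left out for Kdm4a only. They were Kdm4a, Ezh2 and Kdm1a, which encode an H3K9 and H3K36 demethylase, the catalytic subunit of Polycomb repressive complex 2 and an H3K4 demethylase. Their proximal promoters are shown as the regulatory sequence in front of these 3 genes, from 250 bases before to 25 bases after the RefSeq start of transcription (GRCm38.p6), each read 5′ to 3′ along the gene, which lies on the minus strand in all 3 cases. The windows are chr4:118180019-118180293 for Kdm4a, chr6:47595006-47595280 for Ezh2 and chr4:136602699-136602973 for Kdm1a. Capitals mark matches to CCAAT, the box bound by NF-Y, or its complement ATTGG, and to 4 spellings of the E2F motif.
Kdm4a: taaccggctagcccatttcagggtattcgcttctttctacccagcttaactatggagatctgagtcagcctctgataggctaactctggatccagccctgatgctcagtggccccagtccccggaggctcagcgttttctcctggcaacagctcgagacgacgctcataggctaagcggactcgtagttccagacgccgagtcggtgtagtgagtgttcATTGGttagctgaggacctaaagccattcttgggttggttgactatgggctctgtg
Ezh2: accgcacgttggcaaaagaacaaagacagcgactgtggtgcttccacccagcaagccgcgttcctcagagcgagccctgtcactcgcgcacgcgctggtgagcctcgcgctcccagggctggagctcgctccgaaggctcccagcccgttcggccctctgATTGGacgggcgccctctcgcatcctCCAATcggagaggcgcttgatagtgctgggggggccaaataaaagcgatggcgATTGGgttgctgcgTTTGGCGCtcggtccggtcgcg
Kdm1a: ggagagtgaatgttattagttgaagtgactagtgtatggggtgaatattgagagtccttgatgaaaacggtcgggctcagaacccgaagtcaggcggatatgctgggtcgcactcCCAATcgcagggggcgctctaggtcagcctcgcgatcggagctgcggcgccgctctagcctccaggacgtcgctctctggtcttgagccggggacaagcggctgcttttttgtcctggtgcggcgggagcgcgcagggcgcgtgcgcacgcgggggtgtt
Ezh2 held the E2F spelling TTTGGCGC from position 4, counting the start base as 1, and CCAAT boxes from positions -90, -64 and -11. Kdm4a held ATTGG at -31 and Kdm1a CCAAT at -135, and neither held an E2F spelling in the window. The spellings searched, on both strands, were TTTCCCGC, TTTGGCGC, TTTCGCGC and TTTGCCGC, which do not overlap the CCAAT letters. At least 1 of these spellings stood in 2.07% of 32851 mouse promoter windows of this length and in 3 of the 49 windows of the group's genes (Ezh2, Kmt5c and Prdm4), which belong to 35 of the tested genes. CCAAT stood in 35.8% of all windows and in 21 of the 49.

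The comparison of WT_IR with WT asks how wild-type kidney responds to the injury. The log2 changes of the 49 genes ran from -0.51 to 0.85, a narrow range beside -4.44 to 7.42 over all genes, and their median was 0.10 against -0.02. The median of the 49 was 0.042 without WT_IR replicate 1 and 0.050 without WT replicate 1, and it was 0.59 on the TPM scale. A gene was called at an adjusted p under 0.05 by limma over all tested genes, on the deposited FPKM unless another scale is named. Of all tested genes 42.3% were called (19.1% higher, 23.2% lower), and of the 49 genes 28.6% were called (16.3% higher, 12.2% lower). On the FPKM scale the share in the group was below that in the whole table, a difference that was not tested. Among genes of at least 8 kb the share was 34.4%. The split depended on the scaling. Median-of-ratios factors were 0.994 to 1.02 on the deposited FPKM. With them 9 genes were higher and 5 lower, beside 3124 and 3416 of all tested genes. The 8 higher and 6 lower calls became 34 and 0 on the TPM scale and 31 and 0 with voom on the recovered fragments. Voom was run without normalization factors, so it and TPM both scale each library to a total and are not independent of each other. Over all 15607 tested genes the calls were 7486 higher and 1554 lower on the TPM scale and 6331 and 1977 with voom. The called share was then larger in the group than in the whole table, which was not tested either. The 8 higher genes had log2 changes of 0.32 to 0.85 on the FPKM scale and of 0.84 to 1.38 on the TPM scale. Relative to the median of all genes the picture moved less, with 32 of the 49 above it in each of these scalings. Libraries of WT and WT_IR did not overlap for 22 genes that were higher and 9 that were lower in WT_IR, beside 72.1% of all genes without overlap.

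In KO, KO_IR minus KO gave 0 calls among the 49 genes, beside 1.03% of all genes (0.948% higher, 0.0769% lower). A single one of the 49 had an unadjusted p under 0.05, Setd1b, a COMPASS methyltransferase, with -0.29 ± 0.10 (unadjusted p = 0.0261, adjusted p = 0.304), named here after its value was seen. Voom gave 0 calls and 2 genes at an unadjusted p under 0.05. Log2 changes lay between -0.31 and 0.24, with a median of -0.065 against -0.019 for all genes. Without KO_IR replicate 1 the medians were -0.0074 and -0.021, and without KO_IR replicate 2 they were -0.095 and -0.0078. Without KO replicate 1 they were -0.035 and -0.016. Libraries of KO_IR and KO did not overlap for 3 genes that were higher and 14 that were lower in KO_IR, beside 43.3% of all genes without overlap. Without IR, KO minus WT also gave 0 calls, beside 0.218% of all genes (0.160% higher, 0.0577% lower), with 1 gene of the group at an unadjusted p under 0.05 (Kmt5a) and none by voom. These differences lay between -0.22 and 0.24, and the libraries did not overlap for 9 genes higher and 6 lower in KO, beside 43.0% of all genes.

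After IR, KO_IR minus WT_IR called 2 of the 49 genes higher and 8 lower, 20.4% together, beside 30.0% of all genes (16.6% higher, 13.5% lower) and 23.6% of genes of at least 8 kb. The median was -0.16 against -0.008, and the libraries did not overlap for 7 genes higher and 24 lower in KO_IR, beside 67.1% of all genes. The median was -0.068 without KO_IR replicate 1 and -0.24 without KO_IR replicate 2. With median-of-ratios factors 2 were higher and 8 lower, beside 2518 and 2237 of all tested genes. On the TPM scale 0 were higher and 29 lower, and with voom 0 and 28. Of all 15607 tested genes 1432 were higher and 5917 lower on the TPM scale, and 1682 and 5146 with voom. This comparison shares the WT_IR libraries with that of WT_IR and WT, so the values of both are set side by side below and not counted against each other. The interaction, which compares the IR response of KO with that of WT, called 3 genes, all lower in KO (6.12%), beside 16.3% of all genes (9.62% higher, 6.68% lower).

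**Figure D2:**
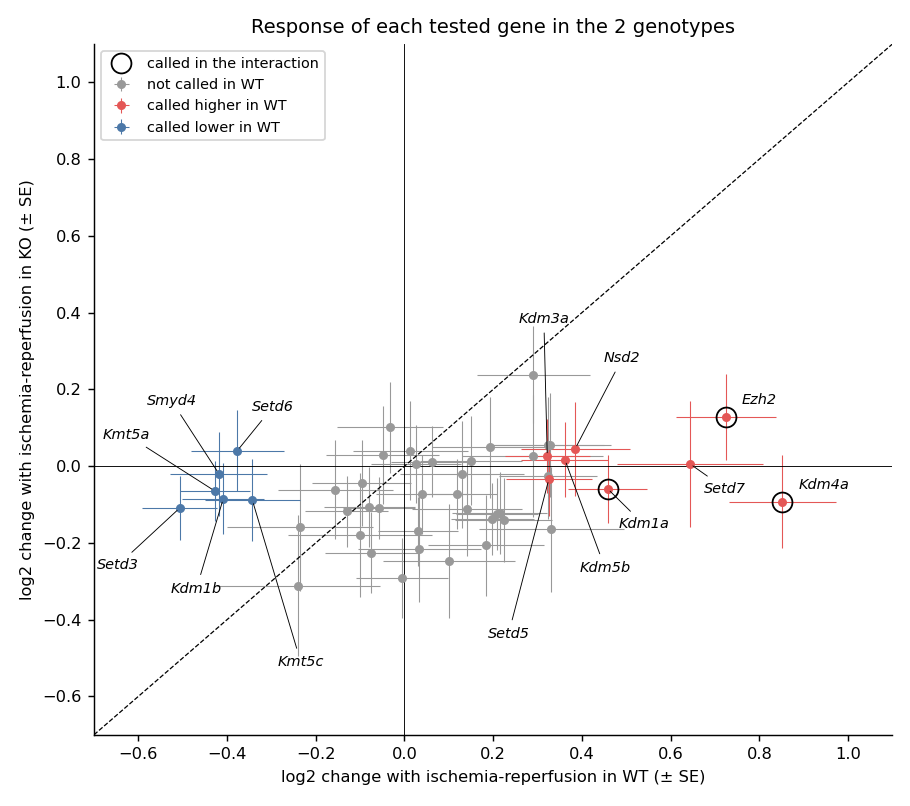
Log2 change with IR in WT (x axis) and in KO (y axis) of the 49 tested genes, each with its standard error. The dashed line marks equal responses, coloured genes are called in WT, and the circled Kdm4a, Ezh2 and Kdm1a, called in the interaction, lie at 0.85, 0.72 and 0.46 in WT and at -0.092, 0.13 and -0.059 in KO.

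Markers of other cells moved with the same comparisons. Of 10 markers of proliferating cells, 9 were called higher with IR in WT, 4 higher with IR in KO, 2 lower in KO without IR and 9 lower in KO after IR, while 0 were called in the interaction. Their summed level was 33.6 to 34.3 FPKM in WT, 20.8 to 21.0 in KO, 75.4 to 76.5 in WT_IR and 33.5 to 40.6 in KO_IR. The sum was highest in WT_IR, and KO_IR lay near WT. All 8 macrophage markers were called higher with IR in WT, 7 higher with IR in KO, 7 lower in KO after IR and 8 lower in the interaction, with sums of 42.3 to 50.1 FPKM in WT, 58.1 to 77.6 in KO, 376 to 396 in WT_IR and 170 to 171 in KO_IR. All 6 fibroblast and pericyte markers were called higher with IR in WT, 3 higher with IR in KO, 4 lower in KO after IR and 3 lower in the interaction, with sums of 10.4 to 16.2, 16.3 to 19.7, 213 to 236 and 84.7 to 90.4 FPKM in the same order. The 6 proximal tubule markers were all called lower with IR in WT and all higher in KO after IR, 0 were called with IR in KO, and 5 were higher in the interaction. Their sums were 1736 to 2077, 1966 to 2050, 363 to 555 and 1795 to 1888 FPKM in that order. With IR in WT, calls were 3 of 3 lower for the thick ascending limb, 2 of 3 lower for the collecting duct, 3 of 3 lower for podocytes, 3 of 4 higher for neutrophils, 4 of 4 for T cells, 3 of 3 for B and plasma cells, and 4 higher and 1 lower of 6 for endothelium. In KO after IR they were 2 of 3, 1 of 3 and 3 of 3 higher for the first 3 of these lists, 3 of 4, 2 of 4 and 1 of 3 lower for the next 3, and 1 of 6 higher for endothelium. These marker counts are on the FPKM scale and over tested markers only. Tested were 4 of 5 listed for neutrophils, 4 of 6 for T cells and 3 of 6 for B and plasma cells. Some passed the limit of 0.5 FPKM only through WT_IR, so their calls are not independent of it. Examples are Cd2 (means of 0.0912 FPKM in WT and 1.24 in WT_IR) and Mmp9 (0.177 and 1.91). On the TPM scale the called markers that turned with IR in WT were Scnn1g of the collecting duct (from -0.42 to 0.069) and Kdr of the endothelium (from -0.35 to 0.096). There the podocyte markers Nphs1 and Podxl were at -0.092 and -0.11 in place of -0.50 and -0.61, and Umod of the thick ascending limb was at -0.13 in place of -0.64. In KO after IR Nphs1 and Podxl were at 0.24 and 0.20 on the TPM scale in place of 0.51 and 0.55. None of the listed markers was at 0 in all libraries. In these bulk samples fewer cells of a type and less RNA per cell cannot be told apart, and the part of these cell types in the results on the methyltransferase and demethylase genes was not tested.

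Among the H3K9 demethylases, 2 of 6 tested genes rose with IR in WT and 3 were lower in KO after IR. Beside the counts of this and the following lists, 19.1% of all tested genes were called higher and 23.2% lower with IR in WT. In KO after IR the shares were 16.6% and 13.5%. Whether any list differs from these shares was not tested. Kdm4a (ENSMUSG00000033326, GRCm38 chromosome 4, 118136957 to 118180043), a Jumonji enzyme that removes methyl groups from H3K9 and H3K36, stood at 13.0 and 14.2 FPKM in WT, 22.7 and 28.1 in WT_IR, 13.5 and 15.6 in KO and 13.7 and 13.4 in KO_IR. Both WT_IR libraries lay above all 6 others, which overlapped. Its level was 1.87-fold higher in WT_IR than in WT, a log2 change of 0.85 ± 0.12 (adjusted p = 0.00137), and it was lower in KO_IR than in WT_IR by -0.85 ± 0.12 on the log2 scale (adjusted p = 0.00264). The interaction was -0.94 ± 0.17 (adjusted p = 0.0130). Kdm4a kept its call in both group comparisons under all 19 other settings and exclusions. Its share of the summed FPKM of the Kdm4 genes was 50.1% and 54.3% in WT, 66.4% and 69.3% in WT_IR, 52.3% and 56.1% in KO and 58.9% and 51.7% in KO_IR.

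Kdm3a, an H3K9 demethylase known to be induced by hypoxia, was at 3.42 and 3.92 FPKM in WT, 5.04 and 4.63 in WT_IR, 3.14 and 3.28 in KO and 3.27 and 3.30 in KO_IR. It was highest in WT_IR, by a log2 change of 0.32 ± 0.096 from WT (adjusted p = 0.0320) and of -0.44 ± 0.096 from WT_IR to KO_IR (adjusted p = 0.0136). The first call ended when WT replicate 1, KO replicate 1, KO replicate 2, WT_IR replicate 1 or WT_IR replicate 2 was left out (adjusted p 0.0523 to 0.158), the second without WT_IR replicate 1 (adjusted p = 0.0823) or KO_IR replicate 1 (adjusted p = 0.061). Kdm3b, its paralog, was at 4.57 and 4.26 FPKM in WT, 5.27 and 5.15 in WT_IR, 4.54 and 4.49 in KO and 3.72 and 4.32 in KO_IR. It passed only after IR, at -0.31 ± 0.094 in KO_IR against WT_IR (adjusted p = 0.0463), a call that ended when any single library other than KO_IR replicate 2 was left out (adjusted p 0.0599 to 0.208). Kdm4b, Kdm4c and Kdm7a were not called in any comparison.

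Of the H3K27 methyltransferases, Ezh2 rose with IR in WT and Ezh1 did not pass. Ezh2 (ENSMUSG00000029687, GRCm38 chromosome 6, 47530139 to 47595341) is the catalytic subunit that Polycomb repressive complex 2 carries in dividing cells, and Ezh1 is its counterpart in resting cells. Ezh2 was at 1.28 and 1.39 FPKM in WT, 2.99 and 2.73 in WT_IR, 1.14 and 1.31 in KO and 1.31 and 1.55 in KO_IR. Again the WT_IR libraries stood above all others, at 2.14 times the WT mean, and KO_IR lay within or just above the range of WT. The log2 changes were 0.72 ± 0.11 with IR in WT (adjusted p = 0.00209) and 0.13 ± 0.11 with IR in KO (adjusted p = 0.708). In KO_IR against WT_IR the log2 change was -0.67 ± 0.11 (adjusted p = 0.00524), and the interaction was -0.60 ± 0.16 (adjusted p = 0.0461). The interaction call ended when any single library was left out (adjusted p 0.0574 to 0.141). Without both KO replicate 2 and KO_IR replicate 1 the call in KO after IR also ended (adjusted p = 0.0522). Ezh1 stayed between 10.4 and 12.7 FPKM in all libraries, so Ezh2 made up 9.48% and 10.2% of the summed FPKM of both genes in WT, 21.5% and 18.3% in WT_IR, 8.23% and 10.8% in KO and 10.4% and 13.0% in KO_IR. The summed level of the 10 proliferation markers was also highest in WT_IR. Of these markers 4 were called higher with IR in KO, where Ezh2 was not called, and 0 in the interaction, where Ezh2 was. A relation between Ezh2 and these markers was not tested. The 9 other subunits of the complex that were listed (Eed, Suz12, Rbbp4, Rbbp7, Aebp2, Jarid2, Mtf2, Phf1 and Phf19) had 0 calls in any comparison on the FPKM scale. The TPM scale raises WT_IR relative to WT, and calls of these subunits on it were not examined. With IR in WT the smallest adjusted p among them were 0.0901 for the histone-binding subunit Rbbp7 (0.21 ± 0.087), 0.127 for Phf19 (0.33 ± 0.15) and 0.150 for Aebp2 (0.18 ± 0.090).

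Among the H3K4 demethylases, Kdm1a and Kdm5b rose with IR in WT, and Kdm1b fell in the deposited FPKM but not on the TPM scale. Kdm1a (ENSMUSG00000036940, GRCm38 chromosome 4, 136550540 to 136602723) encodes LSD1, the flavin-dependent demethylase of the CoREST complex. It was measured at 8.05 and 7.37 FPKM in WT, 10.94 and 10.98 in WT_IR, 7.82 and 7.09 in KO and 6.88 and 7.35 in KO_IR. The WT_IR libraries were again apart from the other 6. Kdm1a rose by 0.46 ± 0.088 in WT (adjusted p = 0.00545) and was at -0.56 ± 0.088 in KO_IR against WT_IR (adjusted p = 0.00399), both calls that held in all 19 alternatives. Its interaction of -0.52 ± 0.12 (adjusted p = 0.0334) was lost when any single library was left out (adjusted p 0.0523 to 0.102). The gene overlaps the coding gene Luzp1 on the opposite strand.

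Kdm1b, the paralog LSD2, which acts in the oocyte on H3K4, was at 7.75 and 8.85 FPKM in WT, 5.73 and 6.27 in WT_IR, 9.03 and 8.88 in KO and 8.54 and 8.24 in KO_IR. Here the WT_IR libraries were the lowest. The change was -0.41 ± 0.092 with IR in WT (adjusted p = 0.0106), 0.044 on the TPM scale, and -0.39 relative to the median of all genes on both scales. In KO_IR against WT_IR Kdm1b was higher by 0.42 ± 0.092 (adjusted p = 0.0136), a difference that was 0.12 on the TPM scale and 0.23 with voom and passed in neither. The first call ended without WT replicate 2 (adjusted p = 0.0539) or WT_IR replicate 1 (adjusted p = 0.0671), the second without WT_IR replicate 1 (adjusted p = 0.0802) or KO_IR replicate 1 (adjusted p = 0.0662). The second was also lost without both KO replicate 2 and KO_IR replicate 1 (adjusted p = 0.108). It overlaps Dek and Tpmt on the other strand. Kdm1a made up 51.0% and 45.4% of the summed FPKM of the pair in WT, 65.6% and 63.6% in WT_IR, 46.4% and 44.4% in KO and 44.6% and 47.1% in KO_IR, a ratio within a library that no scaling alters.

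Kdm5b, which removes methyl groups from trimethylated H3K4, was at 1.83 and 1.98 FPKM in WT, 2.77 and 2.69 in WT_IR, 2.00 and 1.87 in KO and 1.89 and 2.05 in KO_IR. The WT_IR libraries were the highest, by 0.36 ± 0.098 from WT (adjusted p = 0.0222) and by -0.33 ± 0.098 for KO_IR against WT_IR (adjusted p = 0.0420). The first call ended without either WT or either WT_IR library (adjusted p 0.0512 to 0.09998) and the second when any single library was left out (adjusted p 0.0558 to 0.163). Kdm5c, an X-linked paralog and the most abundant of the family, lay between 10.1 and 14.05 FPKM and was not called, nor were Kdm5a and Kdm5d. Kdm5c and Kdm5d are near-identical in parts, and how shared fragments were counted is not given in the sources used here. Of the 8 further CoREST subunits, 2 rose with IR in WT, beside 19.1% of all tested genes, and 0 were called in the other 4 comparisons. The 2 were the deacetylase genes Hdac1 (0.30 ± 0.090, adjusted p = 0.0321) and Hdac2 (0.28 ± 0.088, adjusted p = 0.0405).

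Of the H3K4 methyltransferases, Setd7 was the one called among 8. Setd7, which adds a single methyl group to H3K4 and to many other proteins, was at 3.30 and 3.98 FPKM in WT, 6.26 and 6.199 in WT_IR, 3.76 and 4.23 in KO and 3.25 and 4.91 in KO_IR. The WT_IR libraries lay above the rest, and the KO_IR libraries spanned the range of WT and KO. It rose by 0.64 ± 0.16 in WT (adjusted p = 0.0177), a call that ended without WT replicate 1 (adjusted p = 0.0963), WT_IR replicate 1 (adjusted p = 0.0783) or WT_IR replicate 2 (adjusted p = 0.0726). In KO_IR against WT_IR its value was -0.53 ± 0.16 (adjusted p = 0.0489), which became -0.29 (adjusted p = 0.196) without KO_IR replicate 1 and was called only when KO_IR replicate 2 was the library left out (adjusted p 0.0605 to 0.196 without any of the others). The MLL and SET1 genes that carry the COMPASS complexes were not called in any comparison, and with IR in WT their changes ran from -0.096 for Kmt2c to 0.33 for Kmt2a. Of 11 tested COMPASS subunits, Psip1, which tethers MLL complexes to chromatin, rose with IR in WT (0.50 ± 0.10, adjusted p = 0.00771) and was lower in KO after IR (-0.38 ± 0.10, adjusted p = 0.0297). Wdr5, a shared core subunit, was lower with IR in WT at -0.26 ± 0.075 (adjusted p = 0.0294) in the deposited FPKM and higher at 0.23 on the TPM scale.

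Nsd2, which places dimethylation on H3K36, was the called gene among the 4 H3K36 methyltransferases. It was at 1.91 and 2.37 FPKM in WT, 3.19 and 2.98 in WT_IR, 1.98 and 2.04 in KO and 1.88 and 2.35 in KO_IR. The WT_IR libraries were the highest. Nsd2 rose by 0.38 ± 0.12 in WT (adjusted p = 0.0409) and was at -0.40 ± 0.12 in KO_IR against WT_IR (adjusted p = 0.0483). The first call ended without WT replicate 1, KO replicate 1, KO replicate 2, WT_IR replicate 1 or WT_IR replicate 2 (adjusted p 0.0636 to 0.190), and the second when any single KO, WT_IR or KO_IR library was left out (adjusted p 0.0504 to 0.214). It overlaps Nelfa on the opposite strand. Nsd1, Nsd3 and Setd2, the enzyme of H3K36 trimethylation, were not called, nor were the H3K36 demethylases Kdm2a, Kdm2b and Kdm8 or the H3K27 demethylases Kdm6a and Kdm6b. Kdm6b, which removes H3K27 methylation and is known for its induction in macrophages, lay between 9.72 and 11.2 FPKM in all libraries. The summed macrophage markers were at 376 to 396 FPKM in WT_IR and 42.3 to 50.1 in WT. The even level of Kdm6b holds for the deposited FPKM, on which the median-of-ratios factors were 0.994 to 1.02. It does not hold on the TPM scale, which raises WT_IR relative to WT.

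Both abundant H4K20 methyltransferases were lower with IR in WT in the deposited FPKM, with values above 0 on the TPM scale (0.062 and 0.15). Kmt5a, which places the first methyl group on H4K20 and is tied to the cell cycle, was at 23.9 and 22.2 FPKM in WT, 16.4 and 17.4 in WT_IR, 19.2 and 19.97 in KO and 18.3 and 19.1 in KO_IR. The order was WT, KO, KO_IR and WT_IR with no overlap of libraries. Its change with IR in WT was -0.43 ± 0.079 (adjusted p = 0.00455) on the FPKM scale, 0.062 (adjusted p = 0.591) on the TPM scale and -0.086 with voom, where it was not called, and -0.41, -0.37 and -0.42 relative to the respective medians of all genes. KO minus WT was -0.22 ± 0.079 (unadjusted p = 0.0254, adjusted p = 0.334). Kmt5c, which adds the further methyl groups, was at 25.2 and 23.7 FPKM in WT, 17.3 and 21.0 in WT_IR, 21.3 and 23.3 in KO and 20.6 and 21.2 in KO_IR. WT_IR replicate 2 lay among the KO_IR libraries and below KO and WT. The change with IR in WT was -0.34 ± 0.11 (adjusted p = 0.0378), or 0.15 on the TPM scale and 0.0054 with voom. The call ended when any single library other than WT_IR replicate 2 was left out (adjusted p 0.0534 to 0.197), and without WT_IR replicate 1 the value was -0.21. Kmt5b, at 3.82 to 4.53 FPKM, was not called.

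Among the other SET domain proteins Setd5 rose with IR in WT, and Setd3 and Setd6 fell on the FPKM scale, of which Setd6 turned to 0.096 on the TPM scale. Setd3 (ENSMUSG00000056770, GRCm38 chromosome 12, 108106431 to 108179314), which is known as the methyltransferase of a histidine of actin rather than of a histone, had the highest level of the group. It was at 26.3 and 26.5 FPKM in WT, 18.3 and 18.2 in WT_IR, 28.0 and 26.2 in KO and 26.6 and 23.6 in KO_IR. The WT_IR libraries were below all others, which overlapped. The change with IR in WT was -0.51 ± 0.085 (adjusted p = 0.00286) and that of KO_IR against WT_IR was 0.43 ± 0.085 (adjusted p = 0.00920). Relative to the median of all genes, the change in WT was -0.48 on the FPKM scale, -0.45 on the TPM scale and -0.50 with voom, but as such it was -0.017 on the TPM scale and no longer called there or with voom. The difference after IR was 0.091 on the TPM scale and 0.20 with voom and was called in neither. That call was also lost without WT_IR replicate 2 (0.43, adjusted p = 0.0523) and without both KO replicate 2 and KO_IR replicate 1 (0.35, adjusted p = 0.0769).

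Setd6, which methylates the NF-kB subunit RelA, was at 12.4 and 11.4 FPKM in WT, 8.58 and 9.26 in WT_IR, 9.95 and 10.6 in KO and 11.6 and 9.70 in KO_IR. The mean of Setd6 was highest in WT, although KO_IR replicate 1 lay between the WT libraries, and the WT_IR libraries were the lowest. Its FPKM-scale change with IR in WT was -0.38 ± 0.11 (adjusted p = 0.0251), 0.096 on the TPM scale, and the call ended without WT replicate 1 (adjusted p = 0.116), WT_IR replicate 1 (adjusted p = 0.125) or WT_IR replicate 2 (adjusted p = 0.0611). Setd5, a SET domain protein of chromatin, was at 3.03 and 3.29 FPKM in WT, 4.32 and 4.12 in WT_IR, 3.77 and 3.35 in KO and 3.32 and 3.58 in KO_IR. It rose by 0.33 ± 0.097 with IR in WT (adjusted p = 0.0314), a call that ended without either WT or either WT_IR library (adjusted p 0.0588 to 0.137).

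In the SMYD family Smyd4 was the one called gene of 4 tested. Smyd4 was at 3.68 and 3.48 FPKM in WT, 2.44 and 2.41 in WT_IR, 3.63 and 3.01 in KO and 3.48 and 3.03 in KO_IR. The WT_IR libraries were the lowest. Its change with IR in WT was -0.42 ± 0.11 (adjusted p = 0.0195), -0.043 on the TPM scale where it did not pass, and the call ended without either WT or either WT_IR library (adjusted p 0.0534 to 0.087). None of the 7 tested PRDM genes was called in any comparison. Prdm2, the most abundant of them, lay between 8.70 and 10.8 FPKM. Prdm16, a regulator of brown fat, ranged from 2.32 to 3.97 FPKM and differed more between replicates, as in WT with 3.68 and 2.58 FPKM.

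**Figure D3:**
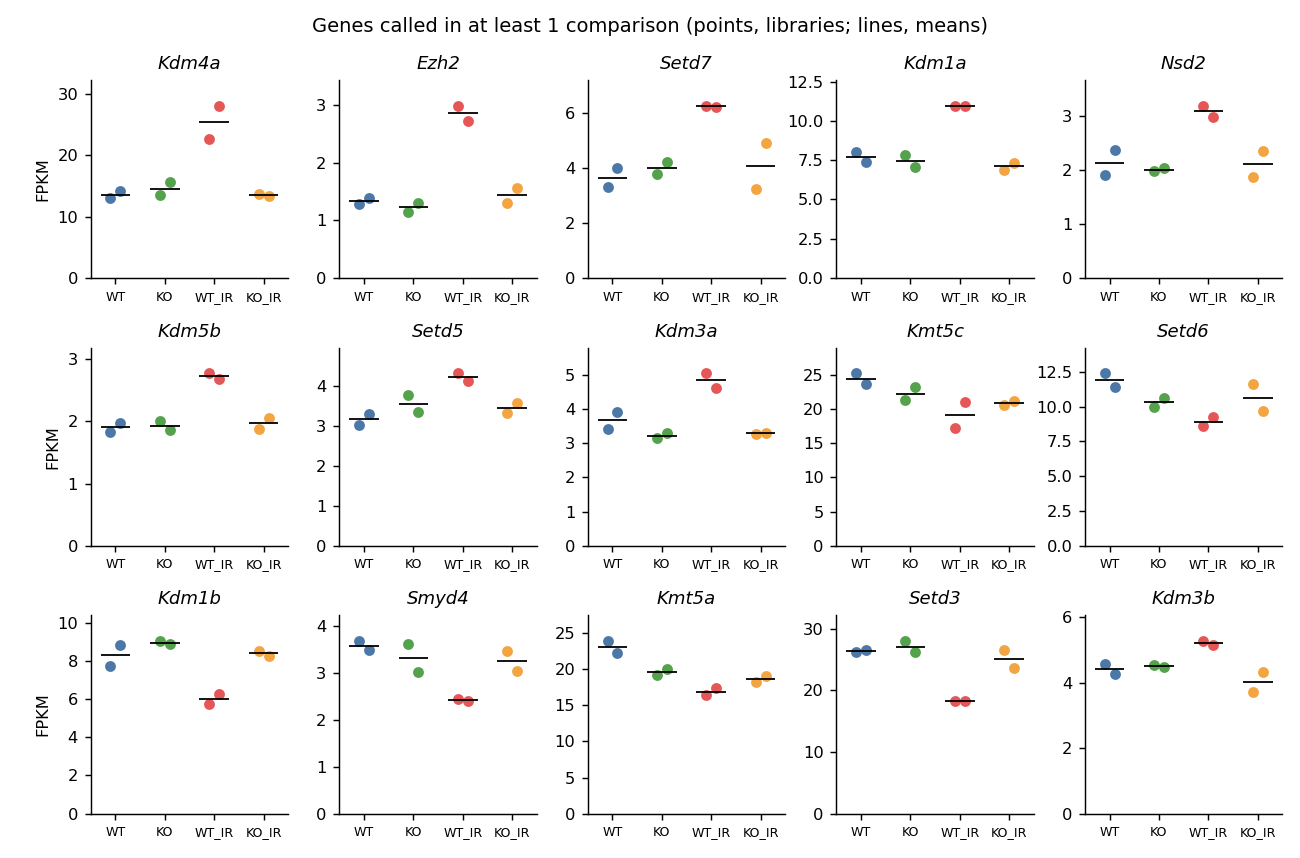
FPKM of the 15 genes called in at least 1 comparison, with a point for each library and a line for the group mean, and axes that start at 0. In the panels of Kdm4a, Ezh2 and Kdm1a the KO_IR points lie near WT and KO and the WT_IR points stand above, and in those of Setd3 and Kdm1b the WT_IR points stand below.

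Of the related enzymes whose symbols do not match the name pattern, 14 were tested. Of these, 2 rose with IR in WT, beside 19.1% of all tested genes. In KO after IR 3 were lower, beside 13.5% of all tested genes. Hr, a nuclear receptor corepressor with a Jumonji domain that acts on H3K9, was at 0.25 and 0.468 FPKM in WT, 2.48 and 3.98 in WT_IR, 0.139 and 0.261 in KO and 0.537 and 0.445 in KO_IR. Its WT_IR libraries stood far above the others. Hr passed the limit of 0.5 FPKM only through WT_IR, since its means were 0.359 in WT, 0.200 in KO and 0.491 in KO_IR. Its calls are therefore not independent of that limit. Hr rose by 1.62 ± 0.19 in WT (adjusted p = 0.000658), differed by -1.48 ± 0.19 in KO_IR against WT_IR (adjusted p = 0.00200) and had an interaction of -1.31 ± 0.27 (adjusted p = 0.0214), on the log2 scale with 1 FPKM added, which understates changes of low genes. Suv39h1, a writer of H3K9 trimethylation, was at 1.94 and 1.51 FPKM in WT, 2.97 and 3.49 in WT_IR, 1.65 and 1.28 in KO and 1.87 and 1.90 in KO_IR. It rose by 0.64 ± 0.13 in WT (adjusted p = 0.00803) and was at -0.55 ± 0.13 in KO after IR (adjusted p = 0.0208). Setdb1, a further H3K9 methyltransferase, was at -0.39 ± 0.096 in KO after IR (adjusted p = 0.0226).

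**Figure D4:**
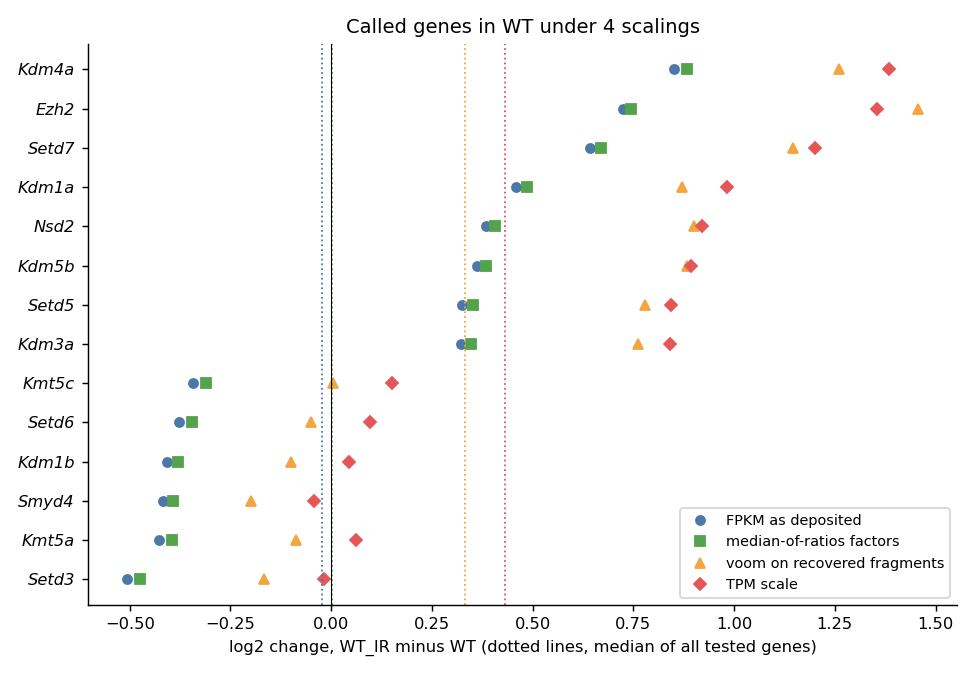
Log2 change from WT to WT_IR of the 14 genes called there, under 4 scalings, with dotted lines at the median change of all tested genes in each. The 8 higher genes lie above 0 and above the median in all 4, and the 6 lower genes lie below the median in all 4 but near 0 on the TPM scale, between -0.043 and 0.15.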

How the data were processed

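RNA of 8 kidney libraries was analysed, 2 pools of 3 mice per group. The deposited table holds FPKM per gene, which the authors made after alignment with HISAT2 2.0.5 to mm10 (GRCm38.p6), per the submitters' processing notes. The sources used here name no counting tool, annotation release or strand setting. FPKM multiplied by gene length came out as a whole number of fragments for 100% of genes (tolerance 1e-06). At these depths 3 fragments on 1 kb equal 0.148 to 0.206 FPKM, a floor for counting error only.

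The 15607 genes averaging 0.5 FPKM or more were fitted as log2(FPKM + 1) over all libraries (limma 3.58.1 in R 4.3.3), with group means and a mean-variance trend, which left 4 residual and 3.04 prior degrees of freedom. The Benjamini-Hochberg adjustment was made per comparison (5 in all), threshold 0.05, and errors of log2 changes are standard errors. Replicates are pools, so p-values measure the spread between pools. The steps were tested on simulated data.

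The genes, role groups, marker lists and lists of related subunits were chosen with earlier results of these data known. All called genes are named with their values in each library, besides the 5 most abundant, those not tested, and Kdm5d and Ehmt2 as checks. For other lists up to 3 genes with the smallest p are named. The levels of 2 tested genes are not reported here. Promoters are from RefSeq (GRCm38.p6). Other settings were pseudocounts of 0.1 and 5, no filter, a mean of at least 5 FPKM, TPM, median-of-ratios factors, no trend, voom, only the groups compared, a replicate block, and leaving out libraries. The fits without a library assume that the lone one left varies like the other groups.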

Additional observations from a re-analysis of the deposited data

Results flagged for a closer look

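3 genes were set apart because the test of the difference between genotypes passed, so that the IR response in KO was below that in WT. They were 6.12% of the 49 genes, beside 6.68% of all tested genes called lower and 9.62% called higher. For Kdm4a the interaction was -0.94 ± 0.17 on the log2 scale (adjusted p = 0.0130 by limma, n = 2 libraries a group), with 0.85 ± 0.12 in WT and -0.092 ± 0.12 in KO. It passed with each single library left out and was lost (-0.86, adjusted p = 0.104) without both KO replicate 2 and KO_IR replicate 1. For Kdm1a it was -0.52 ± 0.12 (adjusted p = 0.0334) and for Ezh2 -0.60 ± 0.16 (adjusted p = 0.0461), neither of which passed when any single library was left out.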

How the results depend on the processing

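The TPM scale and voom on recovered fragments moved the counts most. With median-of-ratios factors they were 9 higher and 5 lower with IR in WT, and 2 and 8 in KO after IR. In the interaction they were 0 and 3, beside 1428 and 1098 of all tested genes. With IR in WT, the 8 higher and 6 lower genes became 34 and 0 (TPM) and 31 and 0 (voom). In KO after IR the 2 higher and 8 lower became 0 and 29 and 0 and 28. The 3 lower in the interaction became 18 and 17. Over all genes the TPM scale called 7486 higher and 1554 lower with IR in WT, and 1432 and 5917 in KO after IR. In the interaction it called 745 higher and 3783 lower, and voom 1059 and 2687. The change with IR in WT reversed on the TPM scale for Kmt5c (0.15), Kmt5a (0.062), Setd6 (0.096) and Kdm1b (0.044), and with voom for Kmt5c (0.0054). The shift of the median of all genes by these scalings, 0.43 and 0.33 against -0.023, is part of their construction. Without a filter, which tests 55 of the genes, 4 were higher and 5 lower with IR in WT, beside 3404 and 3228 of all 29649. In KO after IR 2 were higher and 4 lower, beside 2185 and 2052. In the interaction 0 were higher and 1 lower, beside 968 and 702. With a mean of at least 5 FPKM, which tests 21 of the genes, 2 were higher and 5 lower with IR in WT. Beside them stood 1312 and 2922 of all 7728. In KO after IR 2 were higher and 4 lower, beside 2187 and 1128, and in the interaction 1 and 2, beside 1551 and 576. With only the groups compared, 4 were higher and 5 lower with IR in WT, beside 2771 and 3303 of all 15607. In KO after IR 2 were higher and 5 lower, beside 2199 and 1741, and the interaction could not be fitted. Leaving out a library gave 3 to 9 higher and 2 to 5 lower with IR in WT, 1 to 2 higher and 3 to 9 lower in KO after IR, and 0 to 1 higher and 1 to 2 lower in the interaction. Without both KO replicate 2 and KO_IR replicate 1 the counts were 4 higher with IR in WT, 0 higher and 2 lower in KO after IR and 0 in the interaction. The cause of these losses was not tested. With the replicate block 8 were higher and 6 lower with IR in WT, 2 higher and 5 lower in KO after IR and 2 lower in the interaction. Deviations of same-numbered libraries correlated between -0.12 and 0.16 over the pairs of groups, so the numbers were not treated as a pairing. The comparisons of IR in KO and of KO without IR had 0 calls under every setting run. With 2 pools a group and 14965670 to 17596690 fragments a library, small changes of the genes with low levels could not be told from the spread.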

Other observations

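Prdm9, which encodes the H3K4 and H3K36 methyltransferase that places recombination sites in meiotic germ cells, was present in every kidney library, at 2.19 and 2.22 FPKM in WT, 1.85 and 1.91 in WT_IR, 2.36 and 1.91 in KO and 1.73 and 2.29 in KO_IR. It lies on chromosome 17 (15543079 to 15564354, GRCm38), rested on 1169 fragments in all and overlapped no other gene. In the deposited FPKM the WT_IR libraries lay below those of WT and narrowly below those of KO (1.908 against 1.910). This order depends on the scaling, since the TPM scale raises WT_IR relative to the other groups. Prdm9 was not called in any comparison on the FPKM scale. Prdm14, another germ cell gene of the family, had 2 fragments in all. This pair was chosen after the values were seen.

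KO_IR replicate 1 held the lowest summed level of the 58 genes, 268 FPKM against 288 in replicate 2 and 297 to 308 in the other 6 libraries. Among all genes of at least 8 kb 71.0% were lower in this library than in replicate 2, against 48.4% of all tested genes. In WT_IR the long genes lay the other way, with 30.8% lower in replicate 1.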
